A study of Mus musculus with 23 samples.

Results

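The complement genes described here were 8 genes chosen by name: C1ra, C1s1, C4b, C3, Cfb, Serping1, Cd55 and Cd59a. Each symbol matched 1 of 55573 Ensembl gene IDs, and 7 of the 8 had enough counts to be tested. RNA was sequenced from the quadriceps, a thigh muscle, of C57Bl6 mice (C57BL/6J in the methods of the study) aged 8 to 10 weeks. There were 6 vehicle-treated males, 6 corticosterone-treated males, 6 vehicle-treated females and 5 corticosterone-treated females. Corticosterone is the main glucocorticoid of mice, and it was released for 14 days from a pellet under the skin that held 50 mg corticosterone and 50 mg cholesterol. Vehicle-treated mice carried a pellet of 100 mg cholesterol. All mice were fasted for 5 h before the muscle was taken. Mice are named by F or M for their sex and by their number, odd for vehicle and even for corticosterone.

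Complement is a cascade of serum proteases and opsonins that marks cells and microbes for removal. In the classical pathway, C1q bound to a target activates the proteases C1r and C1s, which cleave C4 and C2, and the resulting convertase cleaves C3. The alternative pathway builds another convertase from C3 and factor B. Host cells are shielded by the C1 inhibitor in plasma and by CD55 and CD59 on their surface. Liver makes most of the circulating components, and fat, fibroblasts and macrophages make some of them too, so that in a bulk muscle sample a lower value can come from fewer cells of a type or from less RNA per cell, which cannot be told apart.

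The members lie on 4 chromosomes of the mouse genome (GRCm38). C1ra (ENSMUSG00000055172, chr6:124512405-124523443, plus strand) and C1s1 (ENSMUSG00000038521, chr6:124530345-124542359, minus strand) face each other tail to tail, 6901 bases apart. C4b (ENSMUSG00000073418, chr17:34728380-34743882) and Cfb (ENSMUSG00000090231, chr17:34856374-34862518) lie 112 kb apart on the minus strand, and C3 (ENSMUSG00000024164, chr17:57203970-57228136) lies on the same strand farther along chromosome 17. Serping1 (ENSMUSG00000023224, chr2:84765387-84775444, minus strand) and Cd59a (ENSMUSG00000032679, chr2:104095801-104115354, plus strand) lie on chromosome 2, and Cd55 (ENSMUSG00000026399, chr1:130439027-130462744, minus strand) on chromosome 1. The counts are per gene, all exons together.

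Of the 8 members, 5 had an entry in RefSeq's promoter table for GRCm38.p6. The 250 bases before the start site are shown for C1s1, Cd55 and Cd59a, 3 of the 4 members that fell in males. C1ra, the other one, is left out because its RefSeq start lies 216 bases inside the GENCODE gene. In all, 5 motifs were searched on both strands, and matches are in capitals. They were the half-site of the glucocorticoid response element (TGTTCT), a STAT site (TTCNNNGAA), the core of an interferon response element (TTTCNNTTT), the CCAAT box (CCAAT) and the TATA box (TATAAA).
C1s1, chr6:124542360-124542609, minus strand: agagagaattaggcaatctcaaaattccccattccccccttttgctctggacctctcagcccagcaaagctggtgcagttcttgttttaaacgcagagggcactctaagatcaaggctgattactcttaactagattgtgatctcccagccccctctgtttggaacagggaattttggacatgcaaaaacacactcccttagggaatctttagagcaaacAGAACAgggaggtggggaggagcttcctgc
Cd55, chr1:130462745-130462994, minus strand: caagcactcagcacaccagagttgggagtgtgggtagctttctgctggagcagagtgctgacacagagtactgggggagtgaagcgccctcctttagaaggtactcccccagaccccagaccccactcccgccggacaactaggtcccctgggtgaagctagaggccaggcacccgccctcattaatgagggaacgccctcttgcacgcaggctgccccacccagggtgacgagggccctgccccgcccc
Cd59a, chr2:104095551-104095800, plus strand: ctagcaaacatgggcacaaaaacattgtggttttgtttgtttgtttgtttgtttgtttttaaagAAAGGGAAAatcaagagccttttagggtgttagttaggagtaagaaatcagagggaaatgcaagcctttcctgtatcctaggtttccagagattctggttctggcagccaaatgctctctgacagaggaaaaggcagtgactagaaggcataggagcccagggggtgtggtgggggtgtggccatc
The window of C1s1 held 1 glucocorticoid half-site, a motif present in 16.1% of all 32851 windows of this length. The window of Cd59a held 1 interferon core, present in 9.37% of windows. The windows of Cd55, C3 and C1ra held none of the 5 motifs, of which the STAT site was in 7.02%, the CCAAT box in 33.8% and the TATA box in 12.4% of windows. A match is a description of the letters and not of a bound site.

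The mice had 20904150 to 21984477 counts each on genes, and levels are given in CPM, counts scaled to each library with the TMM factors of edgeR. The 10 muscle fiber markers summed to between 83275 and 222423 CPM, and the defining lymphocyte markers were nearly absent (21 counts of Cd3e in all 23 mice together). Alb, the gene of serum albumin that liver makes, had a median of 112 CPM, but it reached 1876 CPM in F10, 1835 CPM in M8, 1106 CPM in M9, 1081 CPM in M12 and 822 CPM in F6. Of these 5 mice, 4 had received corticosterone. The summed CPM of the 20 hepatocyte markers ranged from 231 to 442 in vehicle-treated females, from 263 to 3581 in corticosterone-treated females, from 79.9 to 2048 in vehicle-treated males and from 61.9 to 3418 in corticosterone-treated males. Results below are therefore also given without F10 and M8, which lay over 10 times the median of Alb, and without all 5.

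Per kilobase of exon, Serping1 was the most abundant member in each group, at 35.1 ± 9.96 CPM per kb in vehicle-treated females (SD, n = 6) and 50.1 ± 11.6 in vehicle-treated males (SD, n = 6). C3 followed with 28.03 ± 19.9 and 22.998 ± 9.64 CPM per kb, with a spread between mice that overlapped Serping1 and C1s1. C1s1 (17.2 ± 4.19 and 17.5 ± 2.50), Cd59a (16.2 ± 2.0 and 15.1 ± 4.48) and Cd55 (13.1 ± 3.56 and 11.6 ± 2.36 CPM per kb) were close to each other, and their ranges overlapped. C1ra (5.34 ± 1.75 and 6.41 ± 1.35) and C4b (3.95 ± 4.23 and 5.20 ± 2.69) were lower and overlapped as well. Cfb, at 0.0180 ± 0.0224 and 0.0170 ± 0.0105 CPM per kb, was the lowest. The muscle RNA thus held transcripts of both C1 proteases, of C4 and C3 and of their inhibitors, whereas factor B was at the limit of counting.

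In males, corticosterone lowered 4 of the 7 tested members (C1ra, C1s1, Cd55 and Cd59a) and raised none (edgeR quasi-likelihood test, Benjamini-Hochberg adjusted over 13049 genes, threshold 0.01). Among all tested genes, 13.1% were called lower in males and 26.3% were called in either direction. The median log2 fold change (log2FC) of the 7 members was -0.69, beside -0.02 over all tested genes. In females, none of the 7 members passed, where 13.4% of all genes were called, and the members' median was 0.16 beside 0.04. DESeq2 called 1 member in females, Cd55, and 3 members had an unadjusted p under 0.05 (C4b, Serping1 and Cd55). The groups did not overlap for 1 member in males, C1s1, where 11.1% of all genes lay wholly below vehicle. No member was free of overlap in females, where 4.34% of genes lay wholly below and 3.38% wholly above vehicle.

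**Figure D1:**
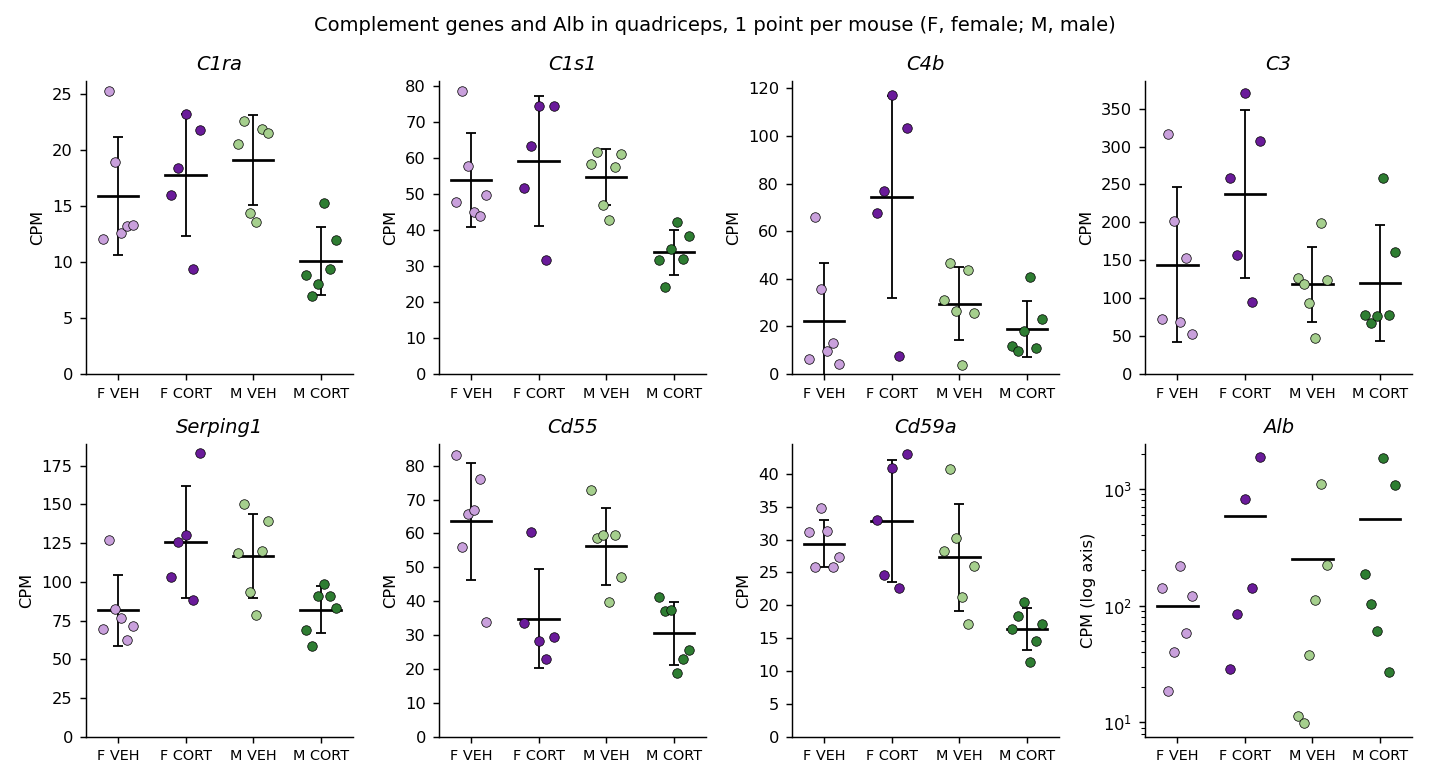
Levels of the 7 tested complement genes and of Alb in CPM (Alb on a log axis), 1 point per mouse, with the group mean as a line and the SD as a bar for the complement genes (the lower bar of C4b in vehicle-treated females is cut at 0). Corticosterone-treated males sit lowest for C1ra, C1s1 and Cd59a, Cd55 is low with corticosterone in both sexes, and C4b and C3 spread widely within groups.

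C1ra encodes C1r, the protease that activates C1s. In vehicle-treated males C1ra ranged from 13.6 to 22.7 CPM with a median of 21.1, and in corticosterone-treated males from 6.96 to 15.3 with a median of 9.12. All 6 treated males lay below the vehicle mean, and only M8, the male with the highest Alb, reached into the vehicle range. The log2FC was -0.92 (SE 0.23, adjusted p = 0.00318, edgeR), a fall from 19.1 ± 4.02 to 10.1 ± 3.06 CPM (SD, n = 6 each). Vehicle-treated females ranged from 12.1 to 25.3 CPM with a median of 13.3. Corticosterone-treated females had 23.2 (F6), 21.8 (F10), 18.4 (F4), 16.01 (F2) and 9.40 (F8) CPM. The female groups overlapped through most of their range, and the log2FC was 0.16 (SE 0.24, adjusted p = 0.662).

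C1s1 encodes C1s, which cleaves C4 and C2. It ranged from 43.0 to 61.7 CPM in vehicle-treated males, with a median of 57.9, and from 24.1 to 42.3 CPM in corticosterone-treated males, with a median of 33.5. The male groups did not overlap, although M8 at 42.3 CPM came close to M7 at 43.0 CPM. The log2FC was -0.69 (SE 0.18, adjusted p = 0.00468). In vehicle-treated females C1s1 ranged from 44.1 to 78.8 CPM with a median of 48.8, and treated females had 74.6 (F10), 74.4 (F6), 63.5 (F4), 51.7 (F2) and 31.6 (F8) CPM. F8 lay below every vehicle-treated female, the other treated females lay inside or near the top of the vehicle range, and the log2FC was 0.13 (SE 0.19, adjusted p = 0.643).

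The C1 proteases kept step with each other. C1s1 held 2.51 to 4.13 times as many CPM per kb as C1ra over the 23 mice, with a median of 3.11. Their log2 CPM deviations from the group means correlated with r = 0.95, and over all 23 mice C1s1 was the tested gene whose pattern was most like that of C1ra (r = 0.96). Both genes were read from the same library in each mouse, so the correlation is a description. The near copies C1rb and C1s2 had 1 and 32 counts in all mice together. Reads that fit both copies would be dropped, since the study counted uniquely assigned reads.

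C4b encodes complement C4 of the mouse. It was the most variable member, with a median of 28.9 CPM (3.92 to 46.7) in vehicle-treated males and of 14.9 CPM (9.73 to 40.8) in treated males and a log2FC of -0.63 (SE 0.64, adjusted p = 0.454). Vehicle-treated females ranged from 4.06 to 65.9 CPM with a median of 11.5. Treated females had 117 (F6), 103 (F10), 77.02 (F4), 67.5 (F2) and 7.48 (F8) CPM. Apart from F8, the treated females thus lay above all vehicle-treated females, yet the log2FC of 1.73 (SE 0.67) had an adjusted p of 0.0604. Without F8 it was 2.02 with an adjusted p of 0.0185, and without the vehicle-treated F3 it was 2.44 with an adjusted p of 0.01002, just over the threshold. C4a, a near copy of C4b, had 118 counts in all mice together against 17932 for C4b, and reads that fit both could not be split between them.

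C3 is the protein on which the pathways converge. In males C3 ranged from 47.8 to 200 CPM with vehicle (median 121) and from 68.0 to 259 CPM with corticosterone (median 77.6). The male groups overlapped, with a log2FC of 0.02 (SE 0.45, adjusted p = 0.974), and the highest of the treated males were M8 and M12, both high in Alb. Without F10 and M8 the value was -0.35 (adjusted p = 0.565) and without all 5 mice high in Alb it was -0.43 (adjusted p = 0.491). Vehicle-treated females ranged from 53.2 to 317 CPM with a median of 112, and treated females had 370 (F6), 307 (F10), 258 (F2), 158 (F4) and 95.6 (F8) CPM. The log2FC in females was 0.72 (SE 0.47, adjusted p = 0.265), and 4 of the 5 treated females lay above the vehicle mean.

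Cfb, the gene of factor B, had 44 counts in all 23 mice together and was not tested. It had no count in 8 mice, which allows up to 3 counts or at most 0.166 CPM, and only F10, F6 and M8 held more than 3 counts, with 10, 9 and 4. These were among the mice highest in Alb. A change of Cfb was not detectable at this depth.

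Serping1 encodes the C1 inhibitor, which inactivates C1r and C1s. Its male and female values moved in opposite directions without passing the threshold in either sex. In males it ranged from 78.4 to 150 CPM with vehicle (median 119) and from 58.8 to 98.8 CPM with corticosterone (median 87.1), a log2FC of -0.51 (SE 0.19, adjusted p = 0.0405). In females it ranged from 62.2 to 127 CPM with vehicle (median 74.1). Treated females had 183 (F10), 130 (F6), 126 (F4), 103 (F2) and 87.99 (F8) CPM, all above the vehicle mean, with a log2FC of 0.63 (SE 0.20, adjusted p = 0.0248). One vehicle-treated female, F3 at 127 CPM, lay far above the other 5, and without it the female log2FC was 0.81 with an adjusted p of 0.00372. Without F8 it was 0.73 with an adjusted p of 0.00954, and without F10 and M8 it was 0.43 with an adjusted p of 0.126.

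Cd55 encodes decay-accelerating factor, a surface protein that dissociates the C3 convertases. It was the member whose log2FC was nearly the same in males and females. In males it ranged from 39.7 to 72.7 CPM with vehicle (median 59.0) and from 18.9 to 41.2 CPM with corticosterone (median 31.4), a log2FC of -0.88 (SE 0.24, adjusted p = 0.00570). In females it ranged from 33.9 to 83.2 CPM with vehicle (median 66.3), and treated females had 60.3 (F4), 33.6 (F2), 29.4 (F10), 28.1 (F6) and 23.03 (F8) CPM. Apart from F4, every treated female lay below every vehicle-treated female. The female log2FC of -0.87 (SE 0.25) had an adjusted p of 0.0145 and therefore missed the threshold. Without F4 it passed, at -1.15 with an adjusted p of 0.00104, and without F11 it passed as well. The difference of the log2FC between the sexes was -0.01 (SE 0.34, adjusted p = 0.984), which with this SE does not show that the sexes responded alike.

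Cd55 was also the member most exposed to single libraries. In males its call was lost when M1, M3, M5, M9, M8, M10 or M12 was left out, with adjusted p up to 0.0166. It was -0.77 (adjusted p = 0.0192) without F10 and M8 and -0.66 (adjusted p = 0.0762) without the 5 mice high in Alb. The direction was the same throughout. Its copy Cd55b, chosen for its sequence likeness, had 63 counts in all, of which 60 were in M1.

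Cd59a encodes CD59, the anchored surface protein that blocks the membrane attack complex. In males it ranged from 17.2 to 40.7 CPM with vehicle (median 27.1) and from 11.3 to 20.5 CPM with corticosterone (median 16.8). Only M9 among the vehicle-treated males lay within the treated range. The log2FC was -0.74 (SE 0.19, adjusted p = 0.00348). In females it ranged from 25.8 to 34.8 CPM with vehicle (median 29.3), and treated females had 43.00 (F10), 40.9 (F6), 33.01 (F2), 24.6 (F4) and 22.6 (F8) CPM. Treated females thus lay on either side of the vehicle range, with a log2FC of 0.16 (SE 0.19, adjusted p = 0.575).

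The paralog Cd59b fell too in males, and by more. It ranged from 5.79 to 8.70 CPM with vehicle and from 1.15 to 3.10 CPM with corticosterone, with no overlap and a log2FC of -1.68 (SE 0.17, adjusted p = 2.3e-07). In females its log2FC was -0.11 (SE 0.17, adjusted p = 0.681), and the difference between the sexes passed the threshold at -1.57 (SE 0.24, adjusted p = 0.00385). Reads that fit both paralogs would be dropped, since the study counted uniquely assigned reads.

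**Figure D2:**
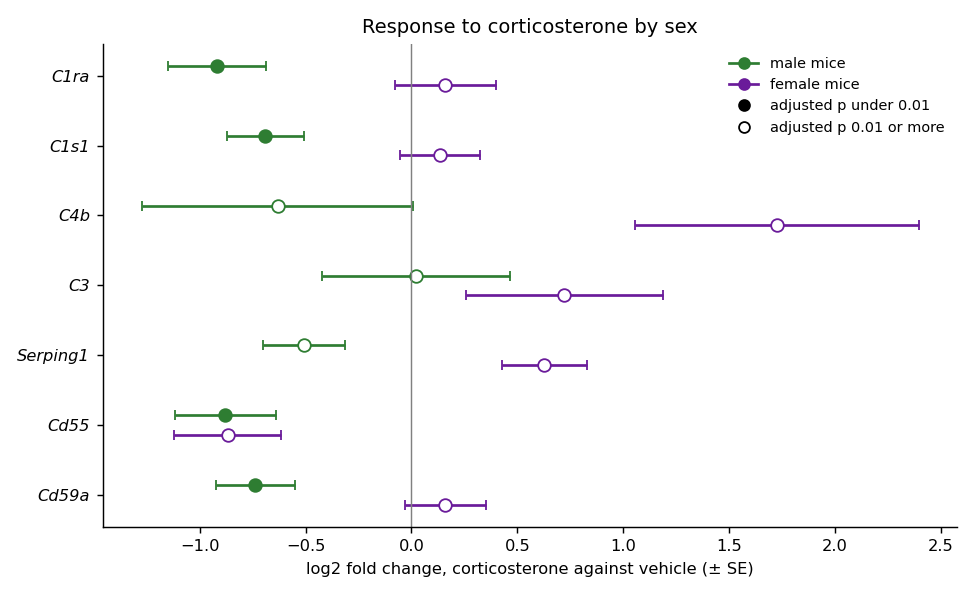
Log2 fold change of corticosterone against vehicle with its SE (edgeR) for the 7 tested members in males and in females; filled points have an adjusted p under 0.01. C1ra, C1s1, Cd55 and Cd59a are filled in males at -0.92, -0.69, -0.88 and -0.74, no point is filled in females, and Cd55 is the only member with nearly equal values in the sexes.

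The count of 4 members in males depended on single mice. It was 1 without the vehicle-treated M3, when C1ra alone was called, and 2 without the corticosterone-treated M8 (C1ra and C1s1) or M10 (C1ra and Cd59a). C1ra kept its call in all 23 fits that each left out 1 mouse, with adjusted p up to 0.00984. C1s1 lost it without M2, M3, M4, M10 or M11, with adjusted p up to 0.0141, and Cd59a without M3 or M8, with adjusted p up to 0.0124. Without F10 and M8 and without the 5 mice high in Alb, C1ra, C1s1 and Cd59a were called. With a log2FC beyond 1 in either direction required as well, none of the 4 was called, where 7.53% of all genes were.

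Among vehicle-treated mice, males and females did not differ in any member by this test (0 of 7, where 0.958% of all genes were called), and Serping1 alone had an unadjusted p under 0.05, at a log2FC of 0.51 (SE 0.19, adjusted p = 0.198). DESeq2 called none either. Among corticosterone-treated mice, 2 members were called, C1s1 and Cd59a, each lower in males, where 23.3% of all genes were called in either direction. Cd59a had a log2FC of -1.005 (SE 0.19, adjusted p = 0.000632), and all 6 treated males lay below all 5 treated females, as was so for 5.55% of all genes. C1s1 had a log2FC of -0.80 (SE 0.19, adjusted p = 0.00253), and the treated males lay below 4 of the 5 treated females, F8 being the exception. C1ra (-0.82, adjusted p = 0.0106), C4b (-1.96, adjusted p = 0.0255), Serping1 (-0.62, adjusted p = 0.0189) and C3 (-0.98, adjusted p = 0.0981) were lower without passing, and Cd55 differed little (-0.19, SE 0.25, adjusted p = 0.568). Whether the sexes were processed in the same batch is not given in the sources used here, so that sex and batch cannot be told apart in these values.

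The calls between treated males and females rested on few mice. C1s1 was not called without F6 or without F10, both high in Alb. C1ra was called without F3, F8 or M8, in DESeq2, in limma-voom and with the hepatocyte score as a covariate, Serping1 without F3 or F8, and C4b without F8. Without F10 and M8, Cd59a alone was called (-0.77, adjusted p = 0.00909). Without the 5 mice high in Alb no member was, Cd59a being at -0.59 with an adjusted p of 0.0512. Over all genes these calls fell as well, from 3043 to 1382 without F10 and M8 and to 294 without the 5 mice. With a log2FC beyond 1 required as well, Cd59a alone was called, where 7.77% of all genes were.

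No member passed the test of the difference between the male and the female response, where 0.690% of all genes were called, and 5 had an unadjusted p under 0.05. The difference was -1.13 for Serping1 (SE 0.28, adjusted p = 0.0183), -0.90 for Cd59a (SE 0.27, adjusted p = 0.0350), -1.08 for C1ra (SE 0.33, adjusted p = 0.0381), -0.82 for C1s1 (SE 0.26, adjusted p = 0.0430) and -2.36 for C4b (SE 0.93, adjusted p = 0.0889). That C1ra, C1s1 and Cd59a fell in males and did not pass in females is thus not shown to be a difference between the sexes at this threshold. DESeq2 called Serping1 and limma-voom called Serping1 and C1ra. Without F8, the corticosterone-treated female with the lowest C1ra, C1s1, C4b, C3, Serping1, Cd55 and Cd59a of her group, C1ra (adjusted p = 0.00863), C1s1 (adjusted p = 0.00548) and Serping1 (adjusted p = 0.00514) passed, and without F3 Serping1 passed (adjusted p = 0.00646).

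Within groups, 5 of the tested members varied together and 2 did not. C1ra, C1s1, C4b, C3 and Serping1 moved together from mouse to mouse, with r of log2 CPM deviations from the group means between 0.65 (C3 with Serping1) and 0.95 (C1ra with C1s1). Cd55 and Cd59a followed neither these 5 nor each other, with r between -0.09 (Cd55 with C1ra) and 0.27 (Cd59a with C4b). This division cut across the response to corticosterone in males, since C1ra and C1s1 of the 5 fell, as did Cd55 and Cd59a.

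**Figure D3:**
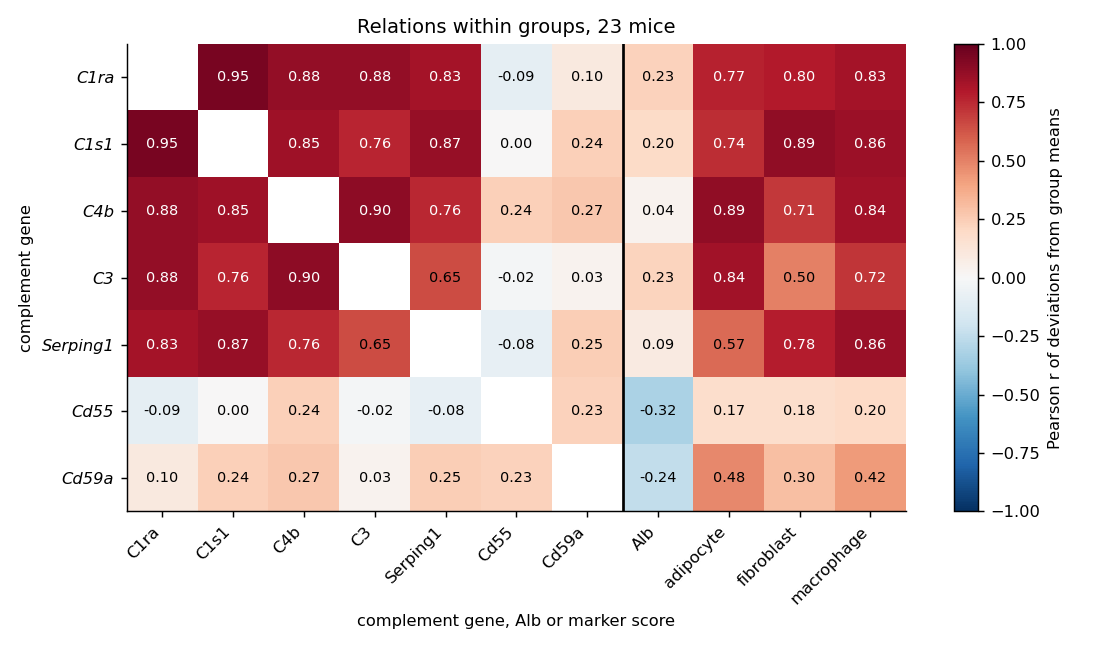
Pearson r over 23 mice of the deviations of log2 CPM from the group means, between the 7 tested members (left of the line) and with Alb and 3 marker scores (right of it). C1ra, C1s1, C4b, C3 and Serping1 form a block with r of 0.65 or more, and they follow the adipocyte, fibroblast and macrophage scores to varying degrees. With the groups pooled, no member follows Alb with r beyond -0.32 or 0.23. The r of C3 with Alb was -0.94 in vehicle-treated females and 0.90 in corticosterone-treated males, which the pooled value does not show.

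Alb, the check on liver RNA, had no relation past the threshold with any of the 7 members when the groups were pooled (28 relations were tested with Alb and 3 marker scores by permutation within groups, adjusted p of 0.255 or more for Alb). For C3 the value was r = 0.23 (p = 0.306) and rho = 0.21 (p = 0.352), and without M8 and M9 it was r = -0.02. The single groups stood apart in this, however, and the differences between them were not tested. C3 and Alb had r = -0.94 among the 6 vehicle-treated females, r = 0.25 among the 6 vehicle-treated males and r = 0.90 among the 6 corticosterone-treated males. Alb ran the same way with C4b (r = -0.87 in vehicle-treated females and 0.82 in treated males), C1ra (-0.91 and 0.80) and C1s1 (-0.83 and 0.63), and with Cd59a it had r = -0.87 in vehicle-treated males. The plot of C3 against Alb shows both arms, since C3 reached 317 CPM in F3, a female with only 18.5 CPM of Alb, and 259 CPM in M8 with 1835 CPM of Alb. M3 and M1, the mice lowest in Alb, had 118 and 127 CPM of C3.

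With the groups pooled, fat markers moved with C3 and C4b. The adipocyte score, the mean log2 CPM of 10 fat cell genes such as Adipoq, was related to C4b with r = 0.89 (p = 2.0e-05, adjusted p = 0.000187) and rho = 0.85 (p = 2.0e-05, adjusted p = 0.000187). With C3 it had r = 0.84 (p = 6.0e-05, adjusted p = 0.00024) and rho = 0.84 (p = 7.0e-05, adjusted p = 0.000327). Without F8 and M7, the mice farthest from the median, r was 0.80 for each of them, and within the 3 groups of 6 mice r lay between 0.69 and 0.95. In corticosterone-treated males C3 had r = 0.69 with the score and 0.90 with Alb, and C4b had 0.70 and 0.82. The score was also related to C1ra (r = 0.77, adjusted p = 0.000868) and C1s1 (r = 0.74, adjusted p = 0.00233). Serping1 (r = 0.57, adjusted p = 0.0265) was past 0.05 but not past 0.01. Without F8 and M7, r was 0.65 for C1ra, 0.57 for C1s1 and 0.38 for Serping1. Cd59a (r = 0.48, adjusted p = 0.0590) and Cd55 (r = 0.17, adjusted p = 0.541) were not past 0.05.

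The amount of fat RNA differed widely between mice. The 10 adipocyte markers summed to between 386 and 1862 CPM in vehicle-treated females, 876 and 7977 in corticosterone-treated females, 408 and 1211 in vehicle-treated males and 911 and 1587 in corticosterone-treated males. In females 3 of the 10 rose with corticosterone and in males 1 did, and none fell. F8, with Adipoq at 5.95 CPM, was the treated female lowest in these markers. With the adipocyte score as a covariate, the female log2FC of C4b was 0.02 (adjusted p = 0.984) and that of C3 was -0.32 (adjusted p = 0.574), while C1ra (-0.98), C1s1 (-0.74), Cd55 (-0.88) and Cd59a (-0.75) were still called in males. Under the same fit Cd59a alone was called between treated males and females (-0.76, adjusted p = 0.00815), where 1254 genes in all were. The mean score was 4.26 in vehicle-treated and 6.75 in treated females, and 4.64 and 4.91 in males, so that in females score and treatment are partly tied. With the score, 434 genes in all were called in females and 3799 in males, beside 1748 and 3426 without it. What part fat had in these values was not tested.

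**Figure D4:**
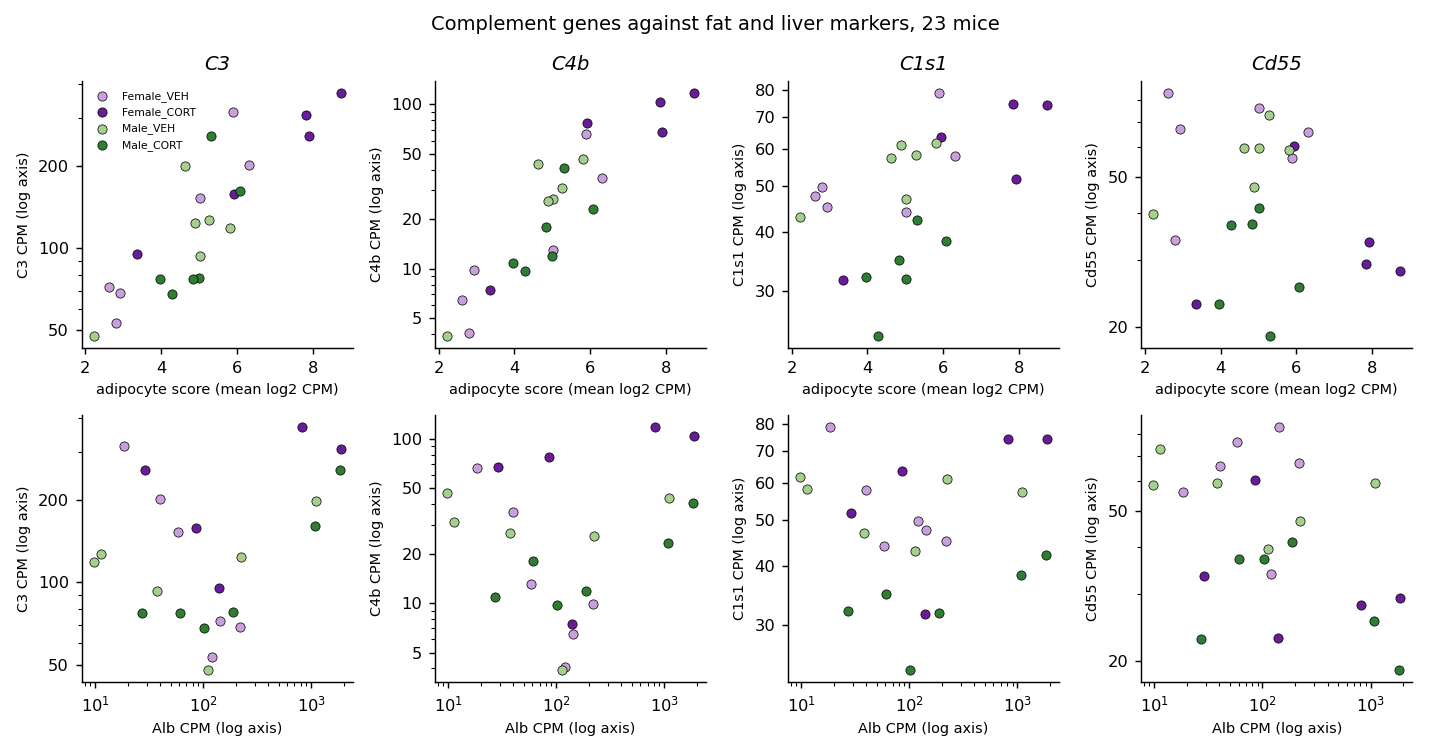
Levels of C3, C4b, C1s1 and Cd55 in CPM (log axis) against the adipocyte score, the mean log2 CPM of 10 fat cell genes (top), and against Alb in CPM (log axis, bottom), 1 point per mouse and coloured by group. C3 and C4b climb with the adipocyte score in every group (r within groups of 0.84 and 0.89). C3 is high in F3, low in Alb, and in M8, high in Alb, but not in M3 and M1, the lowest in Alb. Cd55 follows neither the score nor Alb.

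Fibroblast and macrophage markers also moved with C1ra, C1s1, C4b, C3 and Serping1. Fibroblasts make C1r, C1s and the C1 inhibitor in many tissues. The fibroblast score (10 genes such as Pdgfra and Col1a1) was related to C1s1 (r = 0.89, p = 6.0e-05, adjusted p = 0.00024), C1ra (r = 0.80, adjusted p = 0.000467), Serping1 (r = 0.78, adjusted p = 0.000315) and C4b (r = 0.71, adjusted p = 0.00519). C3 (r = 0.50, adjusted p = 0.0418) was past 0.05 but not past 0.01, and by rho not past 0.05 (adjusted p = 0.0943). F8 and F3 were the mice farthest from the median of this score. Without them, r was 0.79 for C1s1, 0.67 for C1ra, 0.73 for Serping1, 0.50 for C4b and 0.28 for C3. The macrophage score (11 genes, 3 of them the C1q genes) was related to all 5, with r from 0.72 for C3 to 0.86 for Serping1 (adjusted p from 0.00014 to 0.000967). Cd55 and Cd59a were related to neither score (adjusted p of 0.153 or more).

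In males the fibroblast markers fell beside the complement genes. Of the 10, 7 were lower with corticosterone, 3 of them collagens, and 2 were lower in females. Pdgfra, a defining marker, was not among them (log2FC -0.35, adjusted p = 0.0337 in males). The 10 summed to between 1841 and 2775 CPM in vehicle-treated males and 978 and 1530 in treated males, and to between 1737 and 3188 in vehicle-treated and 1388 and 3097 in treated females. The score did not overlap between male groups (6.54 to 7.17 with vehicle, 4.77 to 5.30 with corticosterone), so that score and treatment can hardly be told apart there. With the score as a covariate, 97 genes in all and none of the members were called in males, and C1ra and C1s1 had values of 0.89 and 0.91. The 11 macrophage markers summed to between 94.2 and 292 CPM in vehicle-treated and 123 and 189 in treated males, none of them called in males, and 1 rose in females (Mertk). What part these cells had in the lower C1ra, C1s1, Cd55 and Cd59a was not tested.

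Of 56 other complement genes, 26 were tested. In males 3 were lower (Cfp, Cd59b and Cd93) and 1 was higher (Calr), where 13.1% of all genes were called lower and 26.3% in either direction. In females 7 were higher (C1rl, Masp1, Clu, Vsig4, C3ar1, C5ar1 and Calr), where 7.40% of all genes were called higher, and none was lower. The median log2FC of the 26 was -0.22 in males and 0.89 in females. Among treated mice 14 of the 26 were called, all lower in males, where 23.3% of all genes were called in either direction. How this count depends on the settings was not tested. Over all genes, the calls of this comparison fell from 3043 to 294 without the 5 mice high in Alb. The test of the sex difference in the response was passed by 1 of them, Cd59b, and by 0.690% of all genes.

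In the classical and lectin pathways, the C1q genes that feed C1r were near 1 on the log2 scale in females without passing (C1qa 1.0, adjusted p = 0.0225) and at -0.29 for C1qa in males (adjusted p = 0.475). C1rl, a relative of C1r, rose in females from a median of 1.02 to 5.14 CPM (log2FC 2.20, SE 0.56, adjusted p = 0.00652). The treated females were split, however, with 3 above the vehicle mean of 1.05 CPM and 2 below it. Masp1, the lectin pathway protease, rose from a median of 3.12 to 9.30 CPM (log2FC 1.58, SE 0.36, adjusted p = 0.00300), and in males it was at 1.06 with an adjusted p of 0.0198. C2, cleaved by C1s, was called in neither sex.

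In the alternative pathway, Cfp, the gene of properdin that stabilises the C3 convertase, fell in males from a median of 8.89 to 2.78 CPM (log2FC -1.57, SE 0.37, adjusted p = 0.00184) and was at -0.24 in females (adjusted p = 0.670). Cfd, the fat-made protease factor D, ranged from 36.1 to 1198 CPM among vehicle-treated females alone. It did not pass in either sex (log2FC -2.39 in males, adjusted p = 0.0392). Of the terminal components C7 and C8g were tested, and neither passed.

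Among regulators and receptors, Clu, an inhibitor of the membrane attack complex, rose in females from a median of 70.7 to 128 CPM (log2FC 1.13, SE 0.30, adjusted p = 0.00780). C3ar1 and C5ar1, the receptors of the anaphylatoxins, rose in females (log2FC 1.47, adjusted p = 0.00379, and 1.38, adjusted p = 0.00488) and were at -0.26 and 0.01 in males. Vsig4, a receptor of C3 fragments on macrophages, lay between 0.0488 and 0.284 CPM in vehicle-treated females and between 0.738 and 3.97 CPM in treated ones (adjusted p = 0.000406). With 3 counts worth up to 0.166 CPM, its vehicle values are near the limit of counting, and no fold is given. Cd93 fell in males (log2FC -0.82, SE 0.20, adjusted p = 0.00242), and Calr rose in males (0.44, adjusted p = 0.00159) and females (0.51, adjusted p = 0.00129).

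The count of 7 in females depended on single mice, vehicle-treated ones among them. Without F6 it was 1, and without F10 it was 1, Calr in each case. F6 and F10 were high in Alb, whose part in the count was not tested. The count was 4 without F7 or F2, 3 without F9 or F11, and 12 without F8. With the adipocyte score as a covariate none of the 7 was called and 1 other complement gene was, Cfd, and without the 5 mice high in Alb the count was 0. Over all genes the female calls fell as well, from 1748 to 995 without F6 and 1198 without F10. They were 434 with the adipocyte score and 457 without the 5 mice. With a log2FC beyond 1 required as well, 6 of the 7 were called, all but Calr, where 5.61% of all genes were. The male count lay between 4 and 5 in the 23 fits that left out 1 mouse.

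**Figure D5:**
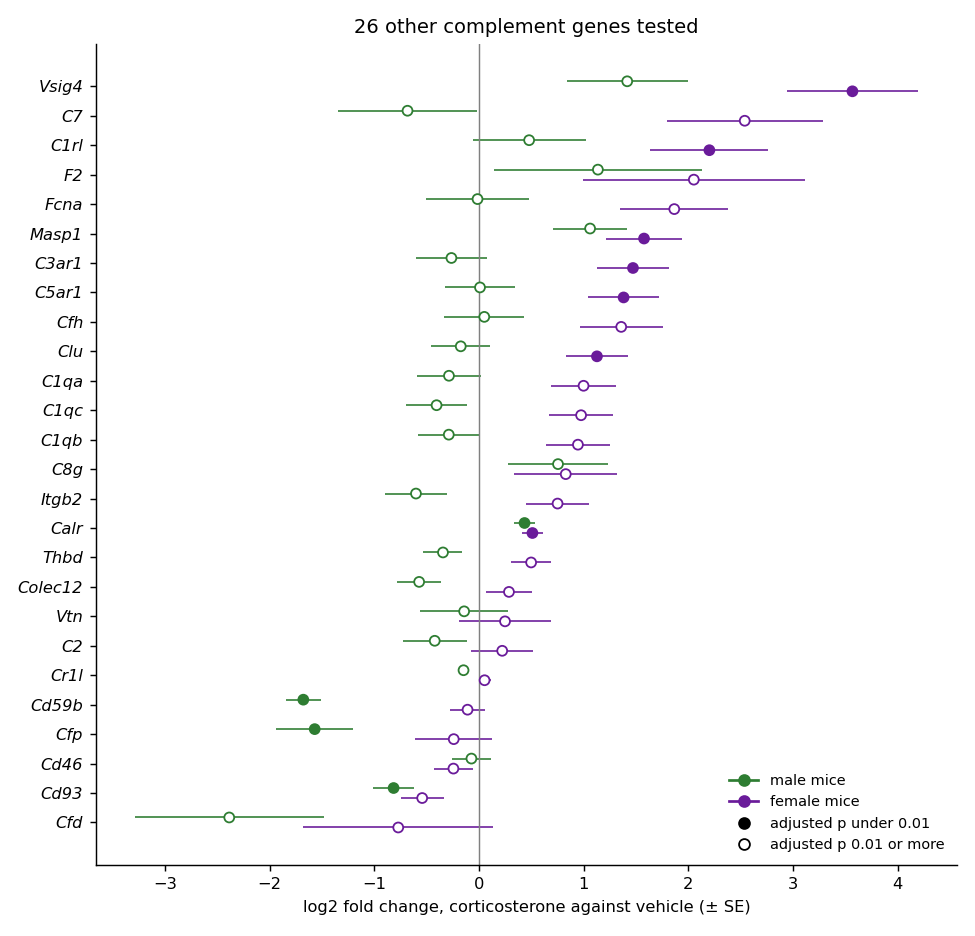
Log2 fold change of corticosterone against vehicle with its SE (edgeR) for the 26 other complement genes tested, in males and in females, ordered by the female value; filled points have an adjusted p under 0.01. The 7 filled female points lie to the right of 0, the 3 filled male points to the left are Cd59b, Cfp and Cd93, and Calr is filled in both sexes.

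Complement genes are induced in many cells by interferons, interleukin 6 and C/EBP factors. A list of 21 genes held genes of these routes and of others, Nr3c1 among them. Of the 21, 5 rose and 2 fell in males, and 7 rose and 2 fell in females, beside the 26.3% and 13.4% of all genes called in either direction in males and females. Il6ra, the receptor of interleukin 6, rose in males (log2FC 3.31, SE 0.31) and in females (2.31, SE 0.30). Cebpd (3.31 and 2.04), Cebpb (1.16 and 0.77) and Osmr (0.47 and 0.73) rose in males and females as well, and Il6st rose in males (0.56, adjusted p = 0.000530).

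The interferon side moved differently. Irf1 fell in males (log2FC -1.02, SE 0.21, adjusted p = 0.000679) and was at -0.07 in females. Ifngr2 fell in males and females (-0.93 and -1.31), while Ifngr1 (0.90) and Ifnar2 (0.95) rose in females. Nr3c1, the gene of the glucocorticoid receptor, fell in females (-0.54, SE 0.13, adjusted p = 0.00442) and was at -0.07 in males.

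Over all 23 mice, the tested genes with the pattern most like each member (highest Pearson r of log2 CPM, a description) mostly differed between members. For C4b they were Adipoq (r = 0.93), Ltc4s and Acp5, and for C3 they were Nnmt (r = 0.92), Pck1 and Csad. For C1s1 they were Dock2 (r = 0.97), Lcp1 and Unc93b1, for C1ra they were C1s1, Dock2 and Ctsh, and for Serping1 they were Rnase4 (r = 0.95), Ecm1 and Clec4a1. Those of Cd55 were Gm48584 (r = 0.95), Gm15675 and Pitpna, and those of Cd59a included Dtymk and Commd10. Among the genes named here, Dock2 alone stood for 2 members.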

How the data were processed

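RNA of quadriceps from 23 mice in 4 groups, set by the sex and treatment in the labels, had been sequenced from stranded libraries. The deposited values are raw counts of read pairs per gene and mouse, made by the authors with STAR 2.7.3a and HTSeq 0.12.4 on mm10 per the labels, without normalization. The 5 summary entries, 10.7% to 15.3% of read pairs, were left out. GENCODE M21 named 55480 of the 55573 gene IDs. By the methods of the study only uniquely assigned reads were counted, so that reads that fit near copies equally would be dropped. This bears on C4b, C1ra, C1s1, Cd55 and Cd59a.

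Counts were tested in R 4.3.3 with edgeR 4.0.16, by the quasi-likelihood test with TMM (factors 0.832 to 1.21) in 1 model of 4 group means, for the 13049 genes that exceeded 20 normalized counts in 4 or more mice of 1 group. The Benjamini-Hochberg adjusted threshold was 0.01. The study's methods, which name DESeq2, also state a log2FC beyond 1 in either direction, which was not required here. Its counts of shared and sex-specific genes name the adjusted p of 0.01 alone. Log2 CPM used a prior count of 1, and scores are means of it over a marker list. Relations used deviations from group means and 100000 permutations within groups, two-sided. Alternatives were DESeq2 1.42.0, limma-voom 3.58.1 with quality weights, filterByExpr, no filter, the median of ratios, only the groups compared, libraries high in Alb left out, marker scores as covariates, a replicate block and each mouse left out. Leaving out the 5 libraries over 800 CPM of Alb, the fibroblast covariate and the limit on the log2FC were chosen after seeing the data. Figures used Python with matplotlib.

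On simulated counts of 13049 genes with 200 changed, the male comparison recovered 68.8% of log2 changes of 1 and 93.4% of those of 2, the female comparison 72.5% and 95.9%, the interaction 47.5% and 87.9%. The simulation gave all groups the same spread and changed fewer genes than the 3426 called in males. The members called in males lay at -0.69 to -0.92, so these rates do not give the recovery of the members. No 2 replicates agreed within sampling noise (lowest chi-square per degree of freedom 13.2). The p-values measure the spread between mice of a group. Intervals of 3 counts cover counting error only. The members and lists were chosen with earlier results of these data known. The genes named are the 8 members, Alb, other complement and inducer genes called in either sex, the copies C4a, C1rb, C1s2, Cd55b and Cd59b, and for each member the 3 genes most like it, apart from 2 genes that are not reported here; C1qa, C2, Cfd, C7, C8g and marker genes were named after their values were seen.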

Additional observations from a re-analysis of the deposited data

Results flagged for a closer look

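In 32 tests of a group's highest and lowest mouse (8 members in 4 groups, of which chance flags about 1 in 20), 2 mice stood apart from the rest of their group. Serping1, the C1 inhibitor, was at 127 CPM in the vehicle-treated female F3, a gap of 0.685 of the whole range to the next mouse. Of the vehicle-treated females, F3 also had the highest C1ra, C1s1, C3 and C4b, the highest fibroblast and macrophage scores and the lowest Alb. Cd55, decay-accelerating factor, was at 60.3 CPM in the corticosterone-treated female F4, a gap of 0.718 of the range. F4 had no extreme value of another member, and its Alb was 85.1 CPM. The cause was not tested in either case.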

How the results depend on the processing

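Beside the values above, 1204 log2FC values of the 7 tested members were computed under other settings, and 1090 of them kept the direction and the side of the threshold, 24 passed newly, 29 no longer passed and 61 turned direction. The cause was not tested except where said. Of the counts, the 4 members called in males were 3 without a filter, with the hepatocyte score and without the libraries high in Alb, 0 with the fibroblast score, and 1 to 4 without 1 mouse. The 0 called in females became 1 in DESeq2 (Cd55) and 3 with the fibroblast score (C4b, C1s1 and Serping1), and 0 to 1 without 1 mouse. The 2 called between treated males and females became 1 with only those groups, without F10 and M8, with the adipocyte score and with the replicate block, 3 (C1ra added) in DESeq2, in limma-voom and with the hepatocyte score, 0 without the 5 libraries high in Alb and with the fibroblast score, and 1 to 5 without 1 mouse. Over all genes, these calls were 3043 in the main fit, 294 without the 5 libraries and 13 with the fibroblast score. The 0 called for the interaction became 1 in DESeq2 and 2 in limma-voom, and 0 to 3 without 1 mouse. Of the other complement genes, the 4 in males became 0 with the fibroblast score (4 to 5 without 1 mouse). With a log2FC beyond 1 required as well, 0 members were called in males and 1 (Cd59a) between treated males and females, and of the other complement genes 2 in males (Cfp and Cd59b) and 6 in females. The 7 in females became 12 in DESeq2, 4 without a filter and with the hepatocyte score, 1 with only those groups, without F10 and M8 and with the adipocyte score, 0 without the 5 libraries, 14 with the fibroblast score, and 1 to 12 without 1 mouse. Over all genes the female calls moved too, from 1748 to 2458 in DESeq2, 561 with only those groups and 1167 without F10 and M8. They were 434 with the adipocyte score, 457 without the 5 libraries and 2649 with the fibroblast score.

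With the replicate block on the numbers shared by males and females, the call of C1s1 between treated mice was lost and no other call of a member changed. Same-numbered mice deviated together with r from -0.38 to 0.48, so the numbers were not taken as pairs, and the block could not be fitted for the response within a sex. The fibroblast score did not overlap between male groups, so that its fit rests on the slope within groups. Under it, values turned in males to 4.10 for C4b, 0.89 for C1ra, 0.91 for C1s1 and 0.97 for Serping1. Between treated males and females they turned to 0.90 for C3, 2.11 for C4b, 0.66 for C1ra, 0.52 for C1s1, 0.57 for Serping1 and 0.19 for Cd55. For the interaction they turned to 1.11 for C3, 1.41 for C4b, 0.36 for C1ra, 0.46 for C1s1, 0.024 for Serping1 and 0.38 for Cd55. With the adipocyte score, females turned to -0.32 for C3, -0.39 for C1ra, -0.31 for C1s1 and -0.16 for Cd59a, the interaction of C3 to 0.19, and C1s1 between vehicle groups to -0.036. Without the 5 libraries, females turned to -0.14 for C1ra, -0.15 for C1s1 and -0.15 for Cd59a. The male value of C3 turned to -0.25 in limma-voom, -0.35 without F10 and M8, -0.23 with the hepatocyte score, -0.13 with the adipocyte score and -0.43 without the 5 libraries, and ranged from -0.36 to 0.23 without 1 mouse. Between vehicle groups C3 was 0.11 in limma-voom and -0.50 to 0.10 without 1 mouse, and C1s1 was -0.030 to 0.16 without 1 mouse. The interaction of Cd55, which lay at -0.01, turned to 0.0073 in DESeq2, 0.0031 with filterByExpr, 0.037 without a filter, 0.0068 with the median of ratios, 0.066 in limma-voom, 0.061 without F10 and M8, 0.061 with the adipocyte score, 0.027 with the replicate block and 0.059 without the 5 libraries, and ranged from -0.13 to 0.27 without 1 mouse. Between treated males and females Cd55 ranged from -0.31 to 0.092 without 1 mouse.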
